A study of Mus musculus with 6 samples.

Results

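The nuclear-encoded subunits of the mitochondrial respiratory chain and ATP synthase were read in right atria (RAs) of mice. Members were all protein-coding genes whose symbols name a subunit of complex I (Nduf followed by a, b, c, s or v and a number), complex II (Sdha to Sdhd), complex III (Uqcr genes and Cyc1), complex IV (Cox4 to Cox8) or ATP synthase, here complex V (Atp5). This rule gave 86 of 54093 genes, namely 37 of complex I, 4 of complex II, 9 of complex III, 18 of complex IV and 18 of complex V. The complex was taken from the symbol alone. As background, Ndufa4 is now placed with complex IV, and Cox7a2l joins complexes III and IV into supercomplexes.

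RNA came from C57BL/6 mice of wild-type genotype (WT), collected on postnatal day 21 (P21), with 3 libraries from sham-operated animals and 3 from animals with volume overload (VO). Per the study's methods, pups of either sex were assigned at random on P7 to sham surgery or to a puncture between the abdominal aorta and the inferior vena cava (aortocaval fistula, ACF), which returns arterial blood to the RA. All animals were operated on, and neither group carried a deleted gene or a transgene. The labels do not say whether a library held 1 atrium or several, so p-values measure the spread between these libraries, which may be partly technical. The question addressed is whether the transcripts of this energy-supplying machinery differ between VO and sham RAs in the third postnatal week.

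Complexes I to IV pass electrons from NADH and succinate to oxygen, and all of them but complex II pump protons out of the mitochondrial matrix. Complex V lets the protons return and makes ATP. The proteins are encoded partly by the mitochondrial genome and mostly by nuclear genes. Heart muscle is among the tissues richest in these complexes, and their nuclear transcripts increase in the weeks after birth as cardiomyocytes turn to oxidative metabolism. Some subunits exist as pairs of genes, with one isoform of heart and skeletal muscle and another used by most cells.

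The libraries held 15963082 to 17237903 fragments on genes, and the level of a gene is given as FPKM, fragments per kilobase of gene length scaled for library size. The atrial identity of the samples was read from cardiomyocyte markers: the atrial light chain Myl7 had 2586 to 8501 FPKM, and the ventricular factor Irx4 did not pass 0.259 FPKM. Other ventricular markers were present and uneven. The ventricular light chain Myl2 had 60.4, 2.02 and 55.96 FPKM in sham and 6.95, 1.54 and 20.6 FPKM in VO, and Myl3 had 83.8 to 246 FPKM. The 4 ventricular markers summed to 121 to 308 FPKM in sham and 92.7 to 143 FPKM in VO, highest in sham 1 and lowest in VO 1, and their part in the members' levels was not tested. Other cell types were not even across libraries. The 9 macrophage markers all had a higher mean in VO, with a summed level of 267 to 367 FPKM in sham and 306 to 940 FPKM in VO, highest in VO 1, and none of them at 0. The brown fat gene Ucp1 was listed at 0 in 5 libraries and at 253.6 FPKM in VO 3. The white adipocyte list reached a summed 485 FPKM in VO 3 and 56.2 to 80.8 FPKM in the other 5 libraries, with Plin1 at 0 in sham 2, VO 1 and VO 2. Red cell markers summed to 6974 FPKM in sham 1 and 8584 FPKM in VO 1, and to 696 to 2383 FPKM in the others.

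Of the 86 members, 82 had a mean of at least 1 FPKM over the 6 libraries and were tested among 12627 genes. The 4 others were isoforms of other tissues and a second annotated copy of Atp5o. Cox6b2, a testis isoform, had 1.16, 0.471 and 0.998 FPKM in sham and 1.44, 0.7197 and 0.878 FPKM in VO. Cox7b2, also a testis isoform, did not pass 0.449 FPKM in any library. Cox8c and the second Atp5o gene were listed at 0 in all 6 libraries.

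The levels of the 82 tested members were lower on average in VO for 81 and higher for 1, with a median log2 fold change (VO minus sham) of -0.47 against -0.01 over all tested genes. The quartiles of their fold changes were -0.63 and -0.34, and the extremes were -1.59 (Ndufa12) and 0.03 (Ndufa4l2). With limma's moderated test, 32 of the 82 had an unadjusted p-value under 0.05 and a lower mean in VO, where 8.08% of all tested genes did. On the higher side the count was 0 members, against 3.89% of all genes. After Benjamini-Hochberg adjustment over all tested genes, 0 members had an adjusted p under 0.05 and 0.00792% of all tested genes did. The study applied DESeq2 at the same threshold and reported many up- and downregulated genes in these RAs. Its test differs from limma on FPKM, and its gene list was not compared with the members here. The adjusted p of the members ran from 0.283 to 0.970. With limma's voom on the recovered fragments the adjusted count was also 0, with 38 members lower at an unadjusted p under 0.05. The share of all tested genes at that level in the voom fit is not given here. In 44 members the 3 VO libraries lay below the 3 sham libraries without overlap, against 12.9% of all tested genes, and in 0 members above them, against 8.25%. With quantile normalization the median of the members was -0.25 against 0.00191 over all tested genes, and 72 of the 82 were lower on average. In bulk RNA, fewer cardiomyocytes and less of these transcripts per cardiomyocyte cannot be told apart.

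The shift was not spread evenly over the libraries. Of the 82 members, 79 were highest in sham 1 and 79 were lowest in VO 1, and 77 showed both, against 17.99% of all tested genes. The median deviation of the members from their own mean was 0.59, 0.09 and 0.04 (log2) in sham 1, 2 and 3 and -0.61, -0.07 and -0.01 in VO 1, 2 and 3. The summed level of all members was 19661, 13484 and 13204 FPKM in sham and 8243, 12082 and 12610 FPKM in VO. Thus the 4 libraries numbered 2 and 3 lay within a narrow range, with both VO sums below both sham sums, while sham 1 stood above and VO 1 below them.

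**Figure D1:**
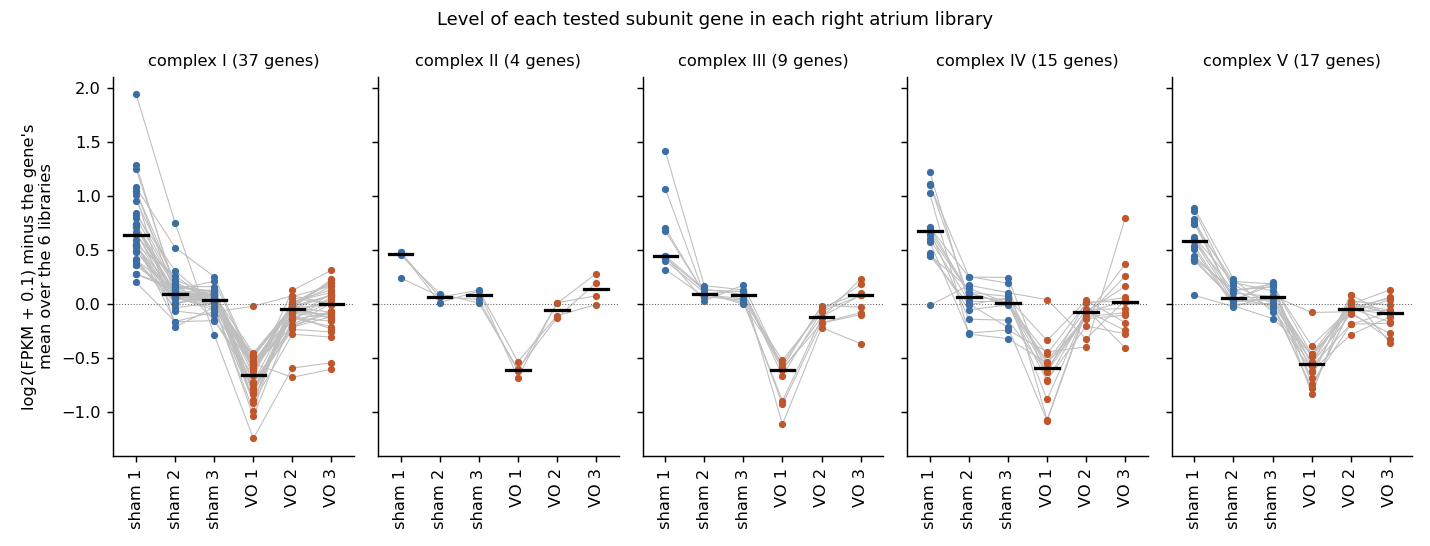
Each point is a tested subunit gene in a library, as log2(FPKM + 0.1) minus its mean over the 6 libraries (vertical axis), with a panel for each complex, grey lines joining the values of a gene and black bars at the median. Sham libraries are blue and VO libraries are orange; sham 1 is highest for 79 of 82 genes and VO 1 is lowest for 79 of 82.

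When sham 1 was left out, the median of the members was -0.30 and 9 members were lower with an unadjusted p under 0.05, against 4.55% of all genes in that fit. Without VO 1 the median was -0.26 and the count 6, against 4.91%. With both left out, an alternative chosen after the data were seen, the median was -0.11, 63 of 82 members were lower on average in VO, and 13 were lower with an unadjusted p under 0.05, against 4.94% of all genes. In that fit 2 members, Ndufa3 and Cox8a, were higher with an unadjusted p under 0.05, against 2.69% of all genes.

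Gene length was related to the level in the same libraries. Among protein-coding genes of 800 bases or less that are no members, the median deviation was 0.53 in sham 1 and -0.31 in VO 1, and their median log2 fold change was -0.27. The 15 members of that length had a median of -0.59. When the trend with expression and gene length was removed in each library, the median of all members was -0.20, 73 of 82 were lower on average and 22 were lower with an unadjusted p under 0.05, against 6.68% of all genes. On the higher side 1 member, Ndufa4l2, did, against 4.89%. Across the 82 members, Pearson's r between log2 length and the deviation in sham 1 was -0.37 and Spearman's rho -0.46, a description over genes that share their libraries.

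The cardiomyocyte markers were likewise highest in sham 1 and lowest in VO 1 by their median. Of the 10 markers, 9 were lower on average in VO, with a summed level of 20268 to 26353 FPKM in sham and 9408 to 17483 FPKM in VO, and none of them at 0. Their median deviation was 0.42, 0.22 and 0.20 (log2) in sham 1, 2 and 3 and -0.72, 0.09 and -0.27 in VO 1, 2 and 3. The members' deviation minus that of the markers was 0.17, -0.13 and -0.16 in sham and 0.10, -0.16 and 0.26 in VO, so the groups overlapped in this difference. The part of cardiomyocyte share, of macrophage RNA in VO 1 and of the trend with length in the lower level of the members was not tested.

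**Figure D2:**
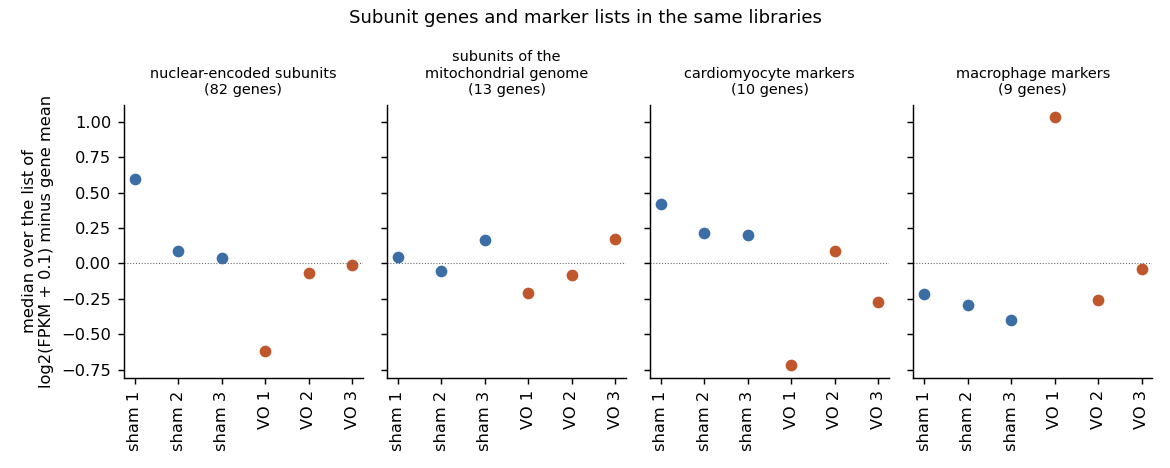
For each library (horizontal axis), points give the median over a list of log2(FPKM + 0.1) minus the gene's mean, for the 82 nuclear-encoded subunits, the 13 subunits of the mitochondrial genome, 10 cardiomyocyte markers and 9 macrophage markers. The subunits fall from 0.59 in sham 1 to -0.61 in VO 1, cardiomyocyte markers lie at 0.42 and -0.72 in the same libraries, and macrophage markers stand highest in VO 1.

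By complex, the median log2 fold change was -0.51 in complex I, -0.38 in complex II, -0.44 in complex III, -0.43 in complex IV and -0.48 in complex V. The members lower with an unadjusted p under 0.05 numbered 15 of 37, 1 of 4, 3 of 9, 5 of 15 and 8 of 17 in the same order. Over all tested genes the share was 8.08%. Those lower without overlap between groups numbered 20, 1, 6, 6 and 11, against 12.9% of all tested genes. Complex II, with 4 genes, is too small to set its count of 1 against these shares. Without sham 1 and VO 1 the medians were -0.10, -0.02, -0.12, -0.08 and -0.16, and with quantile normalization they were -0.30, -0.0983, -0.17, -0.19 and -0.29. With all 6 libraries and the main scaling, the medians of the complexes thus lay between -0.51 and -0.38, while single genes of complex I ran from -1.59 to 0.03.

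**Figure D3:**
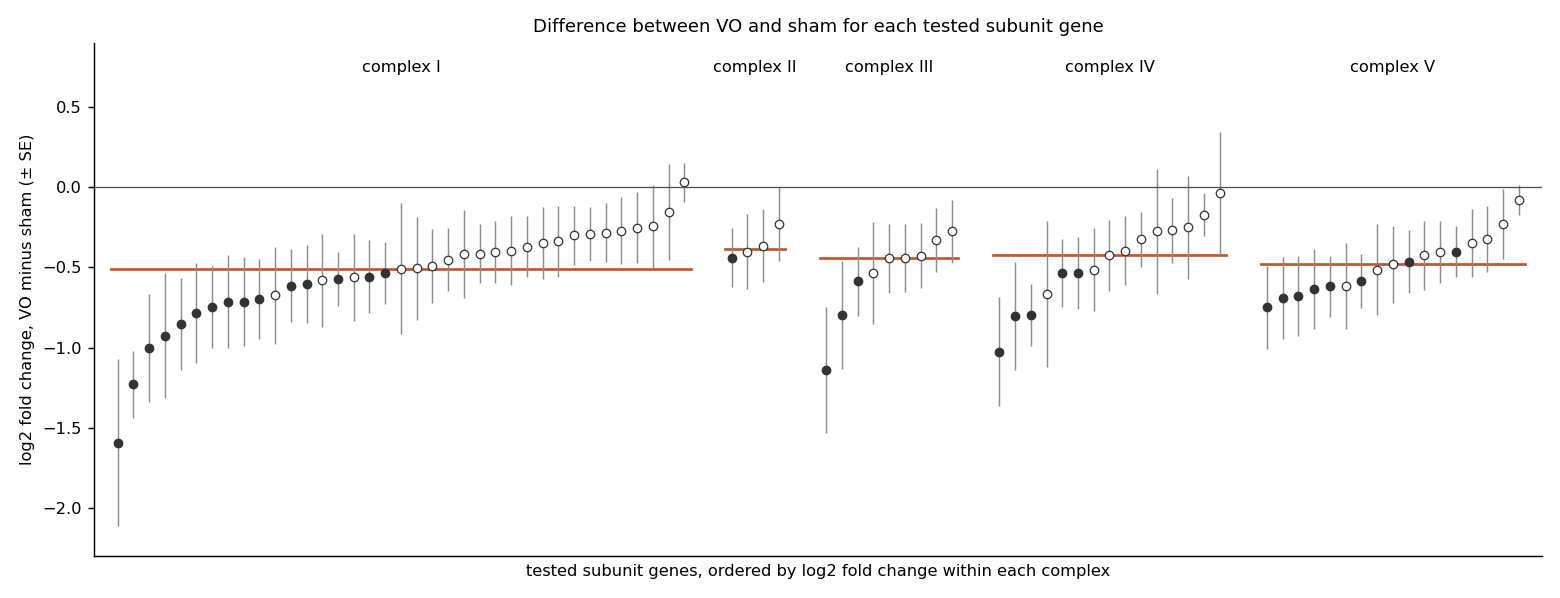
Log2 fold change of VO minus sham with its standard error for the 82 tested subunit genes (vertical axis), ordered by that value within complexes I to V along the horizontal axis, with filled points for an unadjusted p under 0.05 and orange lines at each complex's median. Of the 82 points 81 lie below 0, 32 are filled, and the medians run from -0.51 (complex I) to -0.38 (complex II).

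Complex I oxidises NADH. Of its core nuclear subunits, which carry the flavin and the iron-sulphur clusters or bind ubiquinone, Ndufs1, Ndufs3, Ndufs7, Ndufs8, Ndufv1 and Ndufv2 had log2 fold changes of -0.29, -0.45, -0.40, -0.37, -0.34 and -0.35, of which that of Ndufv1 turned to 0.00766 without sham 1 and VO 1. Limma's adjusted p ran from 0.414 to 0.504 among them. Ndufv1, which binds NADH and the flavin, had 193, 146 and 156 FPKM in sham and 94.5, 147 and 157 FPKM in VO. Its low library was VO 1, and VO 2 and VO 3 lay within the sham range.

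The 30 members of complex I outside its core, most of them accessory subunits that surround the core, had a median of -0.57. They include Ndufa4 and Ndufa4l2, which were placed here by their symbols. Of the 30, 15 were lower with an unadjusted p under 0.05, against 8.08% of all tested genes. Ndufb2 (ENSMUSG00000002416, chromosome 6, 39592574 to 39603382), a subunit of the membrane arm, had the smallest adjusted p among the members. Its level was 9.99, 6.76 and 5.60 FPKM in sham and 3.16, 2.89 and 3.05 FPKM in VO. All 3 VO libraries were close to each other and below every sham library. Its log2 fold change was -1.23 (SE 0.21, adjusted p = 0.283 in limma), between -1.41 and -0.998 when single libraries were left out, and -1.03 without sham 1 and VO 1. These values rest on 513 to 875 fragments in sham and 265 to 323 in VO. By FPKM, Ndufb2 also had the lowest mean level in sham among the tested members. Taken per kilobase of the principal transcript in place of the union of all exons, its mean was 9.59 FPKM, above the 8.96 FPKM of Cox4i2.

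Ndufb5 (ENSMUSG00000027673, chromosome 3, 32736990 to 32751566), another subunit of the membrane arm, had 62.7, 47.7 and 50.3 FPKM in sham and 29.3, 37.7 and 41.2 FPKM in VO. The groups did not overlap, and the log2 fold change was -0.57 (SE 0.17, adjusted p = 0.404 in limma). Ndufb5 shares 12.33% of its exon bases with Mrpl47 on the opposite strand.

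Ndufa12 (ENSMUSG00000020022, chromosome 10, 94198720 to 94221443), an accessory subunit of the arm that reaches into the matrix, had 92.8, 40.5 and 19.8 FPKM in sham and 10.1, 16.0 and 16.5 FPKM in VO. The sham libraries spread over a wider range than the VO libraries, and although the groups did not overlap, sham 3 lay near the VO values. Its log2 fold change was -1.59 (SE 0.52, adjusted p = 0.404 in limma), -1.02 without sham 1 and -2.14 without sham 3. Ndufs6, which lies near the clusters of the same arm, had 90.7, 40.6 and 36.7 FPKM in sham and 17.98, 33.9 and 32.1 FPKM in VO, with most of the difference in the libraries numbered 1.

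Ndufa4 and Ndufa4l2 are a pair of paralogs that also carry the Nduf name. Ndufa4, the most abundant Nduf transcript by mean FPKM, had 395, 258 and 251 FPKM in sham and 182, 271 and 311 FPKM in VO. The groups overlapped, and its log2 fold change was -0.24 (limma's adjusted p = 0.661), turning to 0.19 without sham 1 and VO 1, to 0.0550 with quantile normalization and to 0.0721 with the trend with expression and gene length removed. Ndufa4l2, a paralog known to be induced by low oxygen, had 19.7, 15.3 and 16.3 FPKM in sham and 16.9, 18.1 and 17.2 FPKM in VO. Its log2 fold change was 0.03 (SE 0.12, adjusted p = 0.925 in limma), and all VO libraries lay within the sham range.

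Complex II, succinate dehydrogenase, is encoded by nuclear genes alone and also serves the tricarboxylic acid cycle. Sdha, the flavoprotein, had 194, 173 and 169 FPKM in sham and 107, 165 and 199.9 FPKM in VO, with VO 3 above every sham library. Sdhb, the iron-sulphur subunit, had 217, 169 and 160 FPKM in sham and 104, 145 and 182 FPKM in VO. In both genes VO 1 was the lowest library, VO 2 also lay below every sham library, and VO 3 lay above the lowest sham library. The membrane anchor Sdhc had 125, 93.7 and 98.1 FPKM in sham and 61.9, 83.2 and 89.4 FPKM in VO, and was the member of complex II whose groups did not overlap. Sdhd, the other anchor, had 291, 211 and 227 FPKM in sham and 130.5, 211 and 220.4 FPKM in VO. The log2 fold changes were -0.23, -0.36, -0.44 and -0.40 from Sdha to Sdhd, with limma's adjusted p from 0.414 to 0.646, and that of Sdha turned to 0.0376 with quantile normalization, to 0.0259 without VO 1 and to 0.0873 without sham 1 and VO 1.

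Complex III passes electrons from ubiquinol to cytochrome c. Its catalytic subunits cytochrome c1 (Cyc1) and the Rieske protein (Uqcrfs1) had log2 fold changes of -0.44 and -0.44, without overlap between groups, and limma's adjusted p was 0.430 and 0.427. The core proteins Uqcrc1 and Uqcrc2 had -0.33 and -0.28, and their groups overlapped; the log2 fold change of Uqcrc2 turned to 0.0145 with quantile normalization and to 0.00722 without sham 1 and VO 1. Uqcrc2 shares 19.75% of its exon bases with Pdzd9 on the opposite strand. Uqcr11 (ENSMUSG00000020163, chromosome 10, 80402997 to 80406830), a small subunit of the complex, had 257, 108 and 105 FPKM in sham and 44.5, 82.7 and 74.7 FPKM in VO. All VO libraries were below all sham libraries, with a log2 fold change of -1.14 (SE 0.39, adjusted p = 0.406 in limma) that was -0.44 without sham 1 and VO 1. Uqcr10, another small subunit, had 482, 322 and 327 FPKM in sham and 199.6, 267 and 282 FPKM in VO, without overlap.

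Complex IV, cytochrome c oxidase, reduces oxygen. Cox7c (ENSMUSG00000017778, chromosome 13, 86044816 to 86046904), a small subunit with no tissue isoform among the members, had 352, 256 and 256 FPKM in sham and 132, 187 and 178 FPKM in VO. The groups did not overlap, and the 2 sham libraries numbered 2 and 3 stood above all VO libraries by more than the distance between themselves. Its log2 fold change was -0.80 (SE 0.20, adjusted p = 0.354 in limma), between -0.89 and -0.64 when single libraries were left out. Cox5b, which binds zinc, had 158, 76.3 and 75.2 FPKM in sham and 39.6, 70.0 and 61.7 FPKM in VO. Cox4i1, the regulatory subunit that binds nucleotides, had 566, 380 and 379 FPKM in sham and 258, 360 and 362 FPKM in VO, without overlap but with limma's adjusted p at 0.443.

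Complex V had the highest summed FPKM of the complexes in every library, from 2591 FPKM in VO 1 to 5412 FPKM in sham 1. The alpha subunit Atp5a1 had 1235, 973 and 953 FPKM in sham and 650.4, 874 and 869.8 FPKM in VO, without overlap. The catalytic beta subunit Atp5b had 1089, 837 and 840 FPKM in sham and 583, 788 and 851 FPKM in VO, with VO 3 between the sham libraries. Their log2 fold changes were -0.40 and -0.32, with limma's adjusted p at 0.424 and 0.497, and turned to 0.14 and 0.16 with quantile normalization. Taken per kilobase of the principal transcript in place of the union of all exons, the mean sham level of Atp5b was 2038 FPKM and that of Atp5a1 1337 FPKM, and Atp5b was then the highest of all members.

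The c subunit, which forms the rotating ring, is encoded by 3 genes with the same mature protein. Atp5g3 (ENSMUSG00000018770, chromosome 2, 73908447 to 73911326) had 393, 294 and 278 FPKM in sham and 174, 240.1 and 212 FPKM in VO. Atp5g2 (ENSMUSG00000062683, chromosome 15, 102662864 to 102672352) had 147, 106 and 111 FPKM in sham and 70.8, 93.1 and 78.0 FPKM in VO. Both were without overlap, with log2 fold changes of -0.62 and -0.58 (SE 0.19 and 0.17, adjusted p = 0.404 and 0.4003 in limma). Atp5g1, whose groups overlapped, had 113, 76.4 and 76.9 FPKM in sham and 45.7, 78.2 and 68.0 FPKM in VO. Atp5s, a factor named with complex V and not a part of the enzyme itself, had 9.33, 8.68 and 9.31 FPKM in sham and 8.35, 8.39 and 9.07 FPKM in VO, the smallest size of log2 fold change in the complex (-0.08).

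Of the 32 members with an unadjusted p under 0.05, 13 were also lower at that level without sham 1 and VO 1, 22 with the trend removed, and 12 in all 3 fits, against 3.22% of all tested genes. These 12 were Ndufa1, Ndufa2, Ndufa5, Ndufa8, Ndufa13, Ndufb2 and Ndufb5 of complex I, Uqcr11 of complex III, Cox6a2 and Cox7c of complex IV, and Atp5g2 and Atp5g3 of complex V. The 3 fits share libraries, and the 12 genes were singled out after their values were seen. Ndufa13 shares 29.98% of its exon bases with Tssk6, Ndufa2 shares 11.54% with Tmco6 and Cox6a2 shares 10.29% with Itgad, each on the opposite strand. Whether the fragments were counted by strand is not given in the sources used here, so these levels are uncertain.

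**Figure D4:**
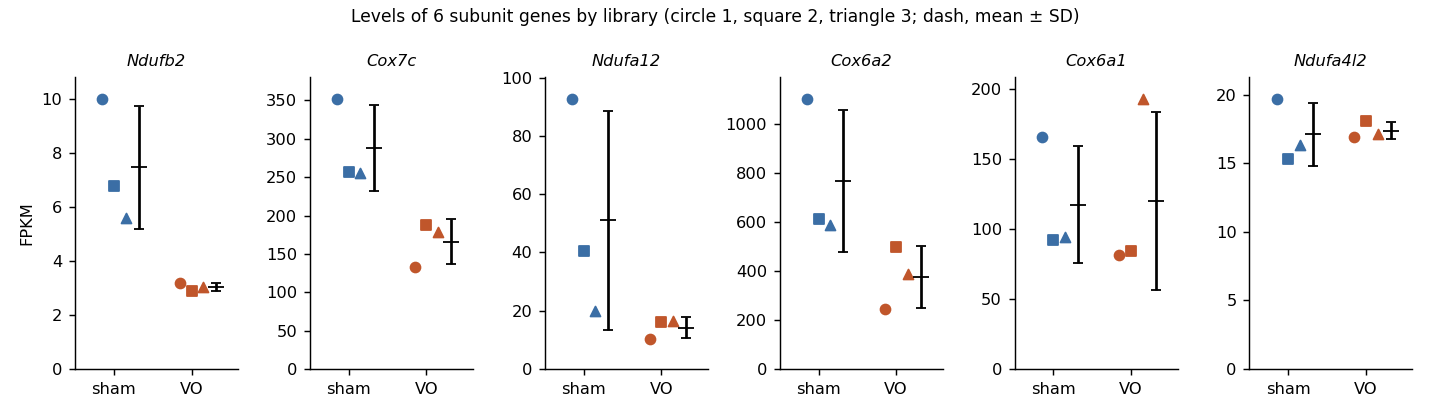
FPKM (vertical axis, from 0) of 6 subunit genes in the 3 sham and 3 VO libraries, with circles, squares and triangles for replicates 1, 2 and 3 and black dashes with bars for the mean and SD. Ndufb2, Cox7c, Ndufa12 and Cox6a2 show no overlap between groups, Cox6a1 is highest in VO 3 at 193 FPKM, and Ndufa4l2 lies between 15.3 and 19.7 FPKM in all libraries.

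The isoform pairs of complex IV were compared as ratios within a library, so that any shift common to both genes cancels. The muscle isoform Cox6a2 (ENSMUSG00000030785, chromosome 7, 128205435 to 128206387) had 1103, 613 and 588 FPKM in sham and 244, 497 and 388 FPKM in VO. Its partner Cox6a1 (ENSMUSG00000041697, chromosome 5, 115345642 to 115348981), the isoform of most other cells, had 166, 92.3 and 94.1 FPKM in sham and 81.7, 84.5 and 193 FPKM in VO. Cox6a2 thus made up 86.9, 86.9 and 86.2% of the summed pair in sham and 74.9, 85.5 and 66.8% in VO. The log2 ratio of Cox6a2 to Cox6a1 averaged 2.70 ± 0.05 in sham and 1.72 ± 0.78 in VO (SD, n = 3 libraries each), and the groups, which did not overlap, differed by -0.99. The two-sided exact permutation test gave p = 0.1, the smallest that 3 libraries against 3 allow, and 0.8 after Benjamini-Hochberg adjustment over 8 pairs. VO 2 lay close to the sham libraries, VO 1 was low in Cox6a2, and VO 3 was high in Cox6a1. VO 1 also held the most macrophage RNA and VO 3 held adipocyte RNA, and the part of either in the ratio was not tested. Leaving out VO 3 gave a difference of -0.63, and leaving out VO 2 gave -1.41.

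The other pairs showed no such separation. Cox7a1, the muscle isoform of subunit 7a, had 341, 146 and 126 FPKM in sham and 69.0, 139 and 164 FPKM in VO, and Cox7a2, the isoform of most cells, had 354, 232 and 216 FPKM in sham and 148, 197 and 201 FPKM in VO. The log2 ratio of Cox7a1 to Cox7a2 was -0.50 ± 0.39 (SD) in sham and -0.63 ± 0.42 in VO (exact permutation p = 0.8, n = 3 each). Within each group this ratio varied by more than the difference between the groups, which was -0.13. The ratio of Cox7a2l to Cox7a2 was -0.17 ± 0.16 in sham and 0.03 ± 0.15 in VO (SD, exact permutation p = 0.2).

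Cox8b, the muscle isoform of subunit 8, had 457, 259 and 258 FPKM in sham and 185, 265 and 370 FPKM in VO. Its partner Cox8a, the isoform of most cells, had 248, 101 and 97.7 FPKM in sham and 83.5, 113 and 146 FPKM in VO. Their log2 ratio was 1.22 ± 0.29 in sham and 1.24 ± 0.10 in VO (SD, exact permutation p = 1.0, n = 3 each), and both genes were higher in VO 3 than in sham 2 and sham 3. Both Cox8b and Cox7a1 are also markers of brown fat, whose gene Ucp1 was above 0 only in VO 3.

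Cox4i2, an isoform known from lung and from low oxygen, had 7.75, 8.83 and 8.42 FPKM in sham and 8.04, 6.23 and 8.02 FPKM in VO, at 1.35 to 3.02% of the pair with Cox4i1. Its log2 ratio to Cox4i1 was -5.70 ± 0.42 in sham and -5.45 ± 0.43 in VO (SD, exact permutation p = 0.6). The log2 ratio of Ndufa4l2 to Ndufa4 was -4.11 ± 0.19 in sham and -3.84 ± 0.38 in VO (SD, exact permutation p = 0.4). Among the c subunit genes, the log2 ratio to Atp5g3 was -1.87 ± 0.07 in sham and -1.73 ± 0.17 in VO for Atp5g1 (SD, exact permutation p = 0.3) and -1.40 ± 0.07 and -1.37 ± 0.07 for Atp5g2 (exact permutation p = 0.6). Over the 8 pairs the adjusted p was 0.8 or higher, and no p in this design could fall below 0.1. The order within a pair was muscle isoform above the other for subunits 6a and 8 in all 6 libraries, and below it for subunit 7a in all 6.

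**Figure D5:**
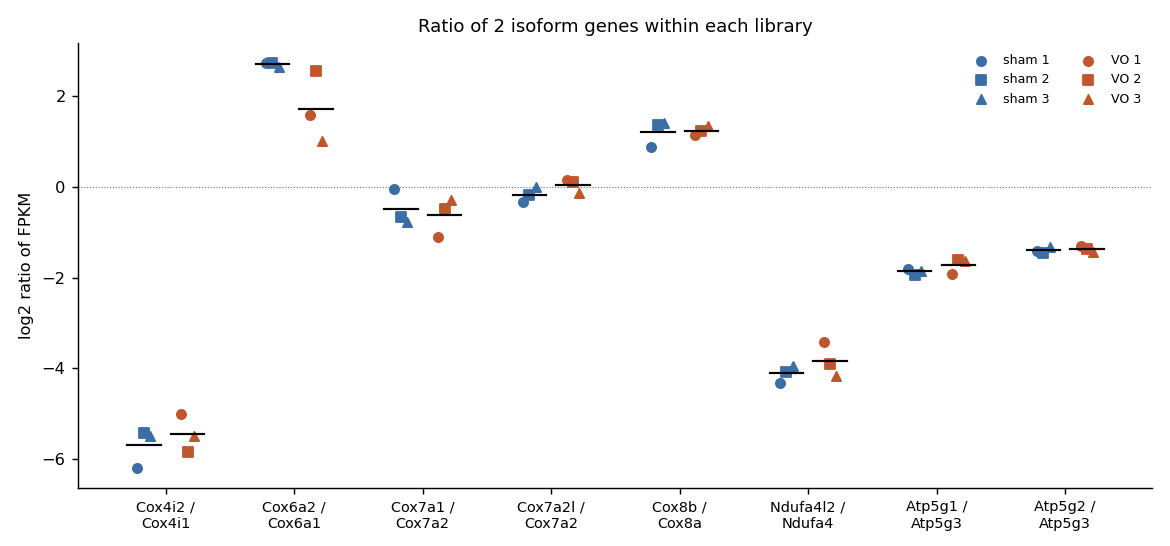
Log2 ratio of the FPKM of 2 isoform genes within each library (vertical axis) for 8 pairs, with sham in blue, VO in orange, a marker shape for each replicate and black bars at the mean. The ratio of Cox6a2 to Cox6a1 lies at 2.64 to 2.73 in sham and 1.01 to 2.56 in VO, and the other 7 pairs overlap between groups.

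Promoter windows were searched for short motifs. RefSeq windows of 300 bases, 250 before the transcription start and 50 after it (GRCm38.p6), were at hand for 69 of the 86 members, with 73 windows in all, and Cox6a2 was not among them. Nuclear respiratory factor 1 (NRF1) and ETS-family factors such as GABP are known regulators of these genes, as is the estrogen-related receptor (ERR). Exact matches on either strand were counted anywhere in the window, before or after the start. The NRF1 core GCGCATGC was in 13.7% of members' windows, 2.71% of all 32851 windows and 5.12% of windows of tested genes. The ETS core CCGGAAG was in 21.9%, 8.86% and 17.1% in the same order, and the ERR half-site AAGGTCA in 8 of the 73 windows of members, 4.72% of all windows and 3.08% of windows of tested genes. The TATA box TATAAA was also in 8 of the 73 windows, against 13.6% of all windows and 7.43% of windows of tested genes, and the myogenic E-box CAGCTG in 8.22% of members' windows, against 16.3% and 15.6%. A match describes the letters and is not evidence of binding.

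Of the subunit 7a pair, the windows of Cox7a1 and Cox7a2 held none of these motifs. Of the subunit 8 pair, the window of the widely used isoform held 2 ETS cores. That of the muscle isoform held the letters TATAAA and 2 myogenic E-boxes. The TATAAA and the E-box that follows it lie within the 50 bases after the annotated start, so no TATA box before the start is shown. Both genes were nonetheless highest in sham 1 and lowest in VO 1. The windows of Cox6a1, the isoform that was high in VO 3, and Uqcr11, the complex III member with the largest fold change, each hold the NRF1 and ETS cores. Among other genes lower in all 3 fits, Ndufa1, Ndufa5, Ndufa13, Ndufb2, Ndufb5, Cox7c and Atp5g3 held neither core in their windows. Ndufa8 and Atp5g2 held the NRF1 core without the ETS core. A link between these cores and the fold change was not tested. The sequences are given 5′ to 3′ on the strand of the gene, with the matched cores in capitals, at chr19:7217567-7217866 for Cox8a, chr7:140900397-140900696 for Cox8b, chr5:115348909-115349208 for Cox6a1 and chr10:80406772-80407071 for Uqcr11, all on the minus strand. In Cox6a1 the NRF1 core matches on both strands, and the 2 matches overlap.
Cox8a: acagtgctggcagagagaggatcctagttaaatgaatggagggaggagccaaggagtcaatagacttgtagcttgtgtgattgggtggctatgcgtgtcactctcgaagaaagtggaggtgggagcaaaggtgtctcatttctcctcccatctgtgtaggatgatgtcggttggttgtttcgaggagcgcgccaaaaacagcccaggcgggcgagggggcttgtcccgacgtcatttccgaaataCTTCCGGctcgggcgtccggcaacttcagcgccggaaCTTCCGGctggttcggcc
Cox8b: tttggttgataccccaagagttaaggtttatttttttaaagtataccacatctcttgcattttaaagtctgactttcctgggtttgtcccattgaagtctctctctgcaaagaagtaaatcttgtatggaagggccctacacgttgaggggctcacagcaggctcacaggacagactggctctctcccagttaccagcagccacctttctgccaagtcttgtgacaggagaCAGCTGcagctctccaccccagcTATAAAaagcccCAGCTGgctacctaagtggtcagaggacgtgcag
Cox6a1: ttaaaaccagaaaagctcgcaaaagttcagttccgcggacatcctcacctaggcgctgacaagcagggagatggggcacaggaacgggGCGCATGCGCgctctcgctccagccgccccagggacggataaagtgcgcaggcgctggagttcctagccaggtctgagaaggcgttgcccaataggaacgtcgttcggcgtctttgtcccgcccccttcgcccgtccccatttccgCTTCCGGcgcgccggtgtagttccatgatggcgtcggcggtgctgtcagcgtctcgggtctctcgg
Uqcr11: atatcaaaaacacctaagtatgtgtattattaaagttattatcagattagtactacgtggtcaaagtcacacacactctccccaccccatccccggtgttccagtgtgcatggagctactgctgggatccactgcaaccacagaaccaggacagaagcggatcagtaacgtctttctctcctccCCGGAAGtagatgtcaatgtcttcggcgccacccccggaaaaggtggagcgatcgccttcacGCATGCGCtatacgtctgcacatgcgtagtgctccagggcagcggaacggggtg

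The partner subunits of the mitochondrial genome overlapped between the groups in their summed level. Of the 13 genes, 9 were lower and 4 higher on average in VO, 1 had an unadjusted p under 0.05 (mt-Co3, lower, limma's adjusted p = 0.157), and the median log2 fold change was -0.08, which turned to 0.0595 with TPM, to 0.0139 with fragment totals and to 0.30 with the trend removed. Their summed level was 113145, 106557 and 122695 FPKM in sham and 101175, 107296 and 124596 FPKM in VO. The nuclear members as a percent of this sum were 17.4, 12.7 and 10.8 in sham and 8.15, 11.3 and 10.1 in VO, so that the groups overlapped (13.6 ± 3.41 and 9.84 ± 1.58, SD, n = 3 libraries each). Within the mitochondrial list, mt-Co3 stood apart, with 871, 1476 and 1519 FPKM in sham and 291, 269 and 381 FPKM in VO. Its groups did not overlap, and its log2 fold change was -2.01 (SE 0.26).

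The other genes of the pathway are read against all tested genes, of which 51.5% were lower on average in VO and 8.08% were lower with an unadjusted p under 0.05. In each list 0 genes passed the adjusted threshold, and in lists this small a count of 1 or 2 genes is near that share. All 16 tested assembly factors of complex I were lower, 1 with an unadjusted p under 0.05, and their median was -0.26. Of 29 assembly factors of complexes II to V, 22 were lower, 4 with an unadjusted p under 0.05, and the median was -0.28. Cox10, which makes the heme of complex IV, had 14.2, 14.9 and 15.4 FPKM in sham and 9.04, 11.5 and 11.6 FPKM in VO. Here sham 1 was not the highest library, and the groups did not overlap (log2 fold change -0.47, limma's adjusted p = 0.373).

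Of 13 genes of ubiquinone synthesis, 11 were lower, 2 with an unadjusted p under 0.05, with a median of -0.25. Of 8 electron carriers and other entry points to the chain, 6 were lower, 1 with an unadjusted p under 0.05 (Etfb, which carries electrons from fatty acid oxidation), with a median of -0.11 that turned to 0.0269 with TPM. All 8 genes that regulate ATP synthase or export ATP were lower, 3 with an unadjusted p under 0.05, with a median of -0.37. Slc25a4, the ADP/ATP carrier of heart and muscle, had 1727, 1042 and 1017 FPKM in sham and 415, 858 and 675 FPKM in VO, without overlap. The 5 tested structural subunits with other names were all lower, 1 with an unadjusted p under 0.05, with a median of -0.32 that turned to 0.00724 with the trend removed. Without sham 1 and VO 1 the medians of these lists lay between -0.13 and 0.20.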

How the data were processed

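RNA-seq libraries of 3 sham and 3 VO RAs at P21 were analysed. Per the labels and the study's methods, the authors aligned reads with HISAT2 2.0.5 (GRCm38), counted them per gene with featureCounts 1.5.0-p3 and deposited FPKM values. The deposited gene length, in bases, is the union of exons. FPKM times length gave whole fragments (tolerance 0.01), already scaled between libraries. The table held 54093 complete genes, and 1 incomplete line was left out.

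Values were rescaled with median-of-ratios factors, and genes under a mean of 1 FPKM were dropped. The log2(FPKM + 0.1) of VO and sham, a scale that understates fold changes of low genes, was compared by limma 3.58.1 under R 4.3.3 (eBayes with trend, two-sided), with Benjamini-Hochberg adjustment over 12627 genes and a threshold of 0.05. Isoform ratios, without pseudocount, were compared by exact permutation. Fits were tested on simulated data in which each gene was drawn independently. That does not show how the test behaves when many genes of a library shift together.

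The members, lists and the naming rule were chosen with earlier results of these data known. The rule names isoform pairs, catalytic subunits, and per complex and direction the 2 members with the smallest p and the one with the highest FPKM. One gene that the rule names is not reported here. Other members named, such as Ndufa12, were chosen after their values were seen. Positions follow the table, identical to the GENCODE M21 annotation (GRCm38) for 80 of 86 members. Reads shared with pseudogenes or overlapping genes (30 members share exon bases) make single values uncertain. Alternatives were other pseudocounts, filters, scalings (TPM, quantile, fragment totals), voom on recovered fragments, eBayes without trend, removal of the trend with expression and length, a replicate block, and libraries left out.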

Additional observations from a re-analysis of the deposited data

How the results depend on the processing

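The lower level of the members rests largely on sham 1 and VO 1. When single libraries were left out, the median log2 fold change of the members ran from -0.59 (without VO 3) to -0.26 (without VO 1), and the members lower with an unadjusted p under 0.05 from 6 (without VO 1) to 31. Without sham 1 and VO 1 together that count was 13, with 2 higher, and the medians were -0.11 over all members, -0.10 in complex I, -0.0204 in complex II, -0.12 in complex III and -0.16 in complex V. For 77 of 82 members sham 1 was the highest and VO 1 the lowest library, so leaving both out was bound to shrink their difference. With the trend removed, 1 member was higher. TPM moved the median of all tested genes to 0.13 and put the median of the members at -0.33, a difference of -0.46, while quantile normalization put the members at -0.25, a difference of -0.25. The members lower without overlap numbered 29 with TPM, 29 with quantile normalization and 29 with the trend removed. The shares of all tested genes without overlap in these fits are not given here, so the counts stand without a comparison. The same holds for the counts at an unadjusted p under 0.05 in the leave-one-out fits other than those without sham 1 or without VO 1. The cause of these changes was not tested.

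Whether replicate numbers mark pairs is not known from the labels. Libraries of the same number correlated at -0.11, 0.01 and -0.03 over all tested genes after removal of group means. Such a correlation cannot exclude a shared litter or day. With the replicate number as a block, 7 members were lower with an unadjusted p under 0.05. The share of all tested genes in that fit is not given here. In a balanced design a block leaves every fold change as it was, so the medians could not move.

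Over 19 alternatives, 24 of 37 named genes had the same sign throughout, and 0 passed the adjusted threshold in any. The log2 fold change turned positive with quantile normalization in Atp5a1 (0.14), Atp5b (0.16), Cox6a1 (0.20), Cox8b (0.0394), Ndufa4 (0.0550), Sdha (0.0376) and Uqcrc2 (0.0145), and with TPM (0.10) and fragment totals (0.0570) in Cox6a1. It did so with the trend removed in Cox4i2 (0.0171), Cox6a1 (0.31), Cox7a2l (0.00331), Cox8a (0.0848), Cox8b (0.15) and Ndufa4 (0.0721), and without sham 1 and VO 1 in Cox6a1 (0.45), Cox7a1 (0.15), Cox8a (0.37), Cox8b (0.28), Ndufa4 (0.19), Ndufv1 (0.00766), Sdha (0.0873) and Uqcrc2 (0.00722). With single libraries left out it ran from -0.44 to 0.24 in Cox6a1, -0.51 to 0.16 in Cox8a, -0.50 to 0.0231 in Cox8b, -0.0456 to 0.14 in Ndufa4l2 and -0.42 to 0.0259 in Sdha. The difference in isoform ratio ran from -0.30 to 0.10 for Cox7a1 over Cox7a2, -0.14 to 0.12 for Cox8b over Cox8a and -0.00151 to 0.0738 for Atp5g2 over Atp5g3.

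The 4 members with a mean under 1 FPKM had few or no fragments and were not tested.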
